A study of Homo sapiens with 12 samples.

Results

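The genes that encode histone H2A.Z and the proteins that place it in chromatin or take it out were examined for changes in H2A.Z itself. They are H2AZ1 and H2AZ2, which encode the H2A.Z isoforms, SRCAP, ZNHIT1 and ACTR6 of the SRCAP complex, the chaperone gene ANP32E, RUVBL1 and RUVBL2, and INO80. These 9 genes were chosen by their function, out of 19970 protein-coding genes, and every listed region that touched the gene body or the 5 kb to each side of it was taken. This gave 70 of 158028 listed regions, of which 27 were H2A.Z regions and 43 were regions of acetylated H2A.Z (H2A.Zac). No region was chosen by its direction of change.

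H2A.Z is a variant of histone H2A that takes the place of the canonical protein mainly in the nucleosomes beside transcription start sites (TSSs). In mammals it is deposited by the SRCAP complex and by the TIP60 complex, in which EP400 is the ATPase and scaffold, KAT5 is the acetyltransferase and TRRAP is a large module that binds activators. ANP32E removes H2A.Z, INO80 is a nucleosome remodeler that also acts on H2A.Z nucleosomes, and RUVBL1 and RUVBL2 form the AAA+ ATPase ring that the SRCAP, TIP60 and INO80 complexes share.

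The data are ChIP-seq of H2A.Z and H2A.Zac in K-562, a human myeloid leukemia line with erythroid features. Both lines carry endogenous EP400-dTAG, a degron allele, were complemented with exogenous EP400 from the AAVS1 safe harbor locus, and received 500 nM dTAGV-1, the degrader, for 24 h, so that the exogenous protein was the EP400 left in the cells. WT cells express exogenous WT EP400 and Delta-TRRAP (ΔTRRAP) cells express exogenous EP400 that lacks the part needed to bind TRRAP, and the comparison asks where H2A.Z and its acetylation depend on that module. The series holds 12 libraries in 6 groups, with 2 biological replicates each of input, H2A.Z and H2A.Zac per line. Each line is 1 clone, so the EP400 allele and the clone cannot be told apart.

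For each mark the authors deposited 3 lists of regions from a comparison of the merged replicates: higher in WT (called lost here), higher in ΔTRRAP (gained) and unchanged. The value of a region is the log10 likelihood ratio of MACS2 bdgdiff, at least 3 in the changed lists and under 3 in the unchanged lists. This ratio grows with read depth as well as with the change itself, so it cannot be read as a fold, and no level of either mark in either line can be read from it. The lists hold no value per replicate, which leaves no spread and no test for any gene below, and the sequencing depth behind them is unknown. In bulk chromatin a change in all cells and a change in some of the cells cannot be told apart. An H2A.Zac region of any class lay within 1 kb of the canonical TSS at 7 of 8 erythroid marker genes (all but GATA1) and at 3 of 6 lymphoid ones, where 64.2% of all protein-coding genes had one. The labels give the cell type as lymphoblast, and so few genes do not settle it. The lists do not measure the EP400 protein, so the genotypes could not be checked with them.

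The promoters of the 4 genes that had a gained H2A.Zac region directly over the TSS are shown here, from 250 bases before the RefSeq start where no annotated transcript leader intervened, with matches to the motifs searched in capitals (RefSeq promoters of GRCh38.p14). They were read in the direction of transcription and lie at chr4:99950281-99950525 (H2AZ1, minus strand), chr7:44848088-44848337 (H2AZ2, minus strand), chr7:101217995-101218164 (ZNHIT1, plus strand) and chr3:128123813-128124062 (RUVBL1, minus strand).
H2AZ1: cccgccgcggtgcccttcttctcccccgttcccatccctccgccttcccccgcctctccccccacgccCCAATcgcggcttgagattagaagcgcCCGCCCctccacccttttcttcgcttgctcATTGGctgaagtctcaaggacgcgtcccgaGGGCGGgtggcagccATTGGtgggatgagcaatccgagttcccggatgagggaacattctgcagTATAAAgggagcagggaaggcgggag
H2AZ2: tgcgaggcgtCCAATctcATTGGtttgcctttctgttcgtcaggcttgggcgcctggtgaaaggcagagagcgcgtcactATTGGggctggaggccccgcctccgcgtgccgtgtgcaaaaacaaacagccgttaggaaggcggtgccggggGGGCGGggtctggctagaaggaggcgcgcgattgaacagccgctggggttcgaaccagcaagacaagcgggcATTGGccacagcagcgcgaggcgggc
ZNHIT1: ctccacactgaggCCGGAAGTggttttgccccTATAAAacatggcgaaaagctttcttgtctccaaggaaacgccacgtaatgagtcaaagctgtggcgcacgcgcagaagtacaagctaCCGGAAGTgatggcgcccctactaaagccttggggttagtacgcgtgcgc
RUVBL1: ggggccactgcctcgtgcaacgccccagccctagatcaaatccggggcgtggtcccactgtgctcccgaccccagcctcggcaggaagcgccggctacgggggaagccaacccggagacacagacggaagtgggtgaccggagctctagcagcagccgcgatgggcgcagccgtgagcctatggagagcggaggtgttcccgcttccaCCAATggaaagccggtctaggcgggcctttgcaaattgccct

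The capitals mark the CCAAT box, the GC box with the letters GGGCGG, the TATA box with the letters TATAAA and an ETS-type motif with the letters CCGGAAGT, each searched on both strands, so that ATTGG stands for the first and CCGCCC for the second on the other strand. The H2AZ1 promoter held 3 CCAAT boxes that begin at -182, -125 and -80 from the start, 2 GC boxes, and a TATA box from -31 to -26. The H2AZ2 promoter held 4 CCAAT boxes, beginning at -240, -232, -170 and -26, and 1 GC box, with no TATAAA. Both histone genes thus have several CCAAT boxes, but they differ in the TATA box. ZNHIT1 held CCGGAAGT from -157 to -150 and from -50 to -43, and TATAAA much further out than in H2AZ1, from -138 to -133. RUVBL1 held a single CCAAT box from -42 to -38. The motifs did not overlap each other in these promoters.

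Promoter entries were matched for 8 of the 9 genes (all but ANP32E). Over the whole 300 bases, 250 before and 50 after the start, CCAAT was present in 5 of 8 and in 34.6% of all 35116 promoters, and GGGCGG was present in 6 of 8 and in 45% of all. TATAAA was present in 2 of 8 (11.5% of all) and CCGGAAGT in 2 of 8 (4.14% of all), the second being ACTR6, on the other strand from -104 to -97. The letters CACGTG (E-box, 7.26% of all), TTTGGCGC and TTTCCCGC (E2F-type, 0.652% and 1.63%), GCGCATGCG (NRF1-type, 1.92%) and AAGATGG (YY1-type, 5.84%) were in none of the 8 windows. The promoters were rich in CpG, with a median GC content of 64.5% against 58.7% over all promoters, and a median ratio of observed to expected CpG of 0.837 against 0.579. ZNHIT1 had the lowest GC content of the 8, at 48.3%, and SRCAP the highest, at 72%. These matches describe the letters in the windows and do not show binding.

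At the TSSs of these genes a changed region was listed for H2A.Zac more often than for H2A.Z, as it was over all protein-coding genes. The 2 marks come from separate libraries of unknown depth, so these counts do not compare the size of the changes. Within 1 kb of the canonical TSS, 8 of the 9 genes had a gained H2A.Zac region, where 36.8% of all protein-coding genes did, and 57.3% of the 12819 genes with an H2A.Zac region of any class there. Only RUVBL2 had none. A gained H2A.Z region lay within 1 kb of the TSS at H2AZ1 and H2AZ2 alone, 2 of 9 genes (22.2%), where 13.9% of all protein-coding genes had one. Of the 12461 genes with an H2A.Z region of any class there, as all 9 had, 22.3% had a gained one, so this count was at the background. A lost H2A.Z region was found at 0 of 9 TSSs (6.55% of all genes), and a lost H2A.Zac region at 2 of 9, ANP32E and RUVBL1 (16.7% of all genes), both of which also had a gained one, and neither lost region came within 500 bp of the TSS. Every one of the 9 genes had an unchanged H2A.Z region within 1 kb of its TSS (59.8% of all genes), and all but H2AZ2 an unchanged H2A.Zac region (58.1%).

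**Figure D1:**
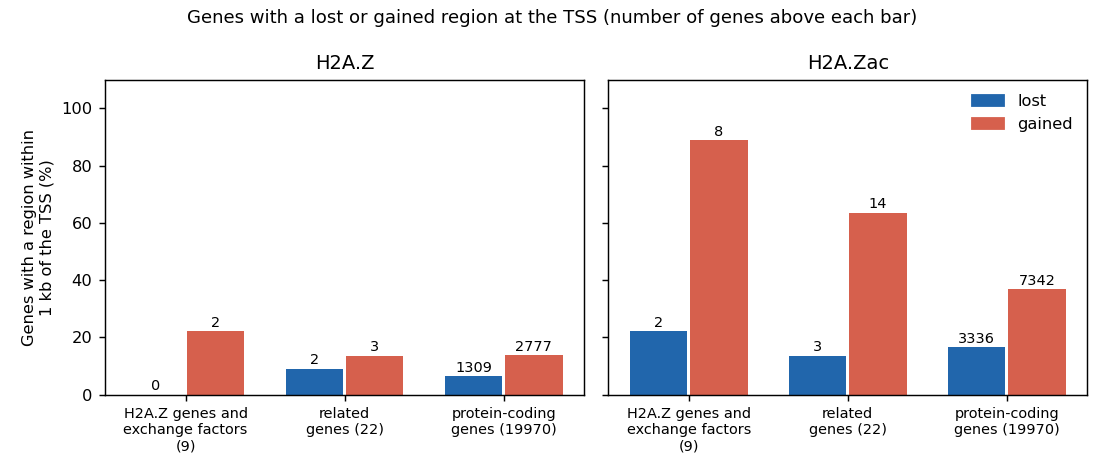
Share of genes with a lost (blue) or gained (red) region within 1 kb of the canonical TSS, in percent, for H2A.Z (left) and H2A.Zac (right), in the 9 genes, 22 related genes and all 19970 protein-coding genes, with the number of genes above each bar. The gained H2A.Zac bar of the 9 genes stands at 8 genes, against 36.8% of all genes, while the H2A.Z bars are at 0 and 2 genes.

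Taking all regions in the loci, 16 of the 43 H2A.Zac regions (37.2%) belonged to the gained list and 4 (9.3%) to the lost list, where the deposited lists together held 26.3% gained and 25.9% lost. Of the 27 H2A.Z regions, 5 (18.5%) were gained and 4 (14.8%) were lost, where the list held 14.1% gained and 19.8% lost. In base pairs, gained H2A.Zac regions covered 11645 bp of the loci and lost ones 2671 bp, so that 81.3% of the changed bases were gained, against 50.6% over the list. For H2A.Z the gained and lost regions covered 3328 and 1958 bp, 63% of the changed bases against 39%. The lists are not a like background for these shares, because they also hold regions far from any TSS. Of the 16 gained H2A.Zac regions, 12 lay within 1 kb of a TSS. Over all protein-coding genes gains were more common than losses there too, 36.8% against 16.7% for H2A.Zac and 13.9% against 6.55% for H2A.Z. The changed regions as a whole took a smaller part of the loci than of the lists, 39.4% against 51.4% of the H2A.Zac bases and 22.8% against 27.9% of the H2A.Z bases. At the level of the locus, 8 of 9 genes had a gained H2A.Zac region (55.1% of all genes) and 4 of 9 a lost one (43.3%), and 3 of 9 had a gained H2A.Z region (23.8%) and 3 of 9 a lost one (21.8%). Of the genes with any listed H2A.Zac region in the locus, as all 9 had, 68% had a gained one and 53.5% a lost one. For H2A.Z, also listed in all 9, these shares were 30.3% and 27.8%. The counts of genes with a lost region in the locus were thus not far from the background. The gained H2A.Zac count was above both 55.1% and 68%, a difference that has no replicate check.

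**Figure D2:**
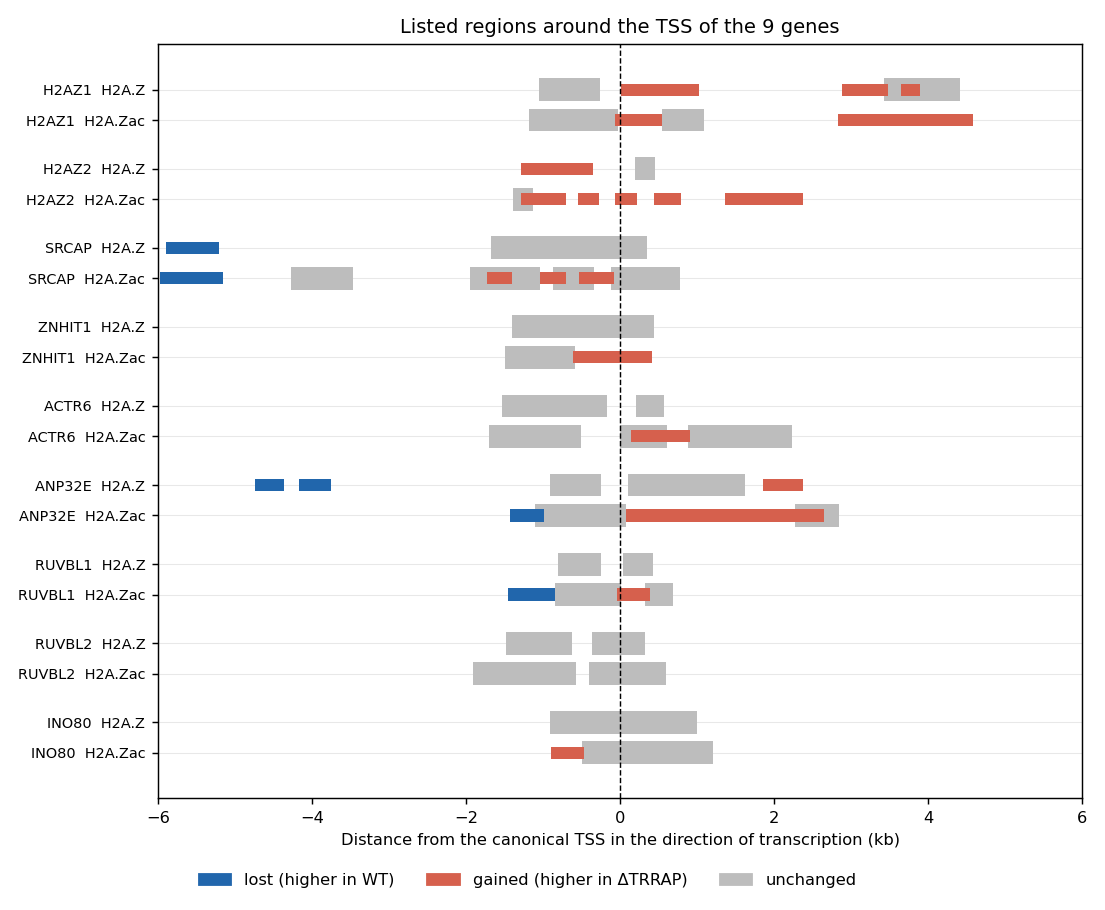
Listed regions around the canonical TSS (dashed line) of each of the 9 genes, drawn in the direction of transcription as distance in kb, for H2A.Z (upper row of each gene) and H2A.Zac (lower row). Red bars are gained, blue bars lost and gray bars unchanged regions. Red H2A.Zac bars lie within 1 kb of the TSS in 8 genes, red H2A.Z bars in 2, and no blue H2A.Z bar does. Regions more than 6 kb from the TSS are not drawn.

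H2AZ1, the gene of the H2A.Z isoform that mouse embryos cannot do without, gained both marks over the start of its transcribed part. The gene lies at chr4:99948086-99950355 on the minus strand (hg38), with 5 exons, and distances below are counted from the TSS base in the direction of transcription. An H2A.Zac region of 609 bp that runs from -62 to +546 bp of the TSS was gained with a log10 likelihood ratio of 10.5, the highest of the 16 gained H2A.Zac regions in the 9 loci. The gained H2A.Z region of the gene, with a ratio of 7.44, began just past the TSS, from +10 to +1031 bp, over exons 1 to 3. It covered 88.2% of the gained H2A.Zac region, but only 52.5% of its own bases lay on gained H2A.Zac. An unchanged H2A.Zac region from +538 to +1089 bp (ratio 0.521) covered 48.3% of the gained H2A.Z region. The stretch that gained H2A.Zac takes in the TATA box of the sequence above, and the stretch that gained H2A.Z does not. Beyond these first bases upstream of the TSS no changed region of either mark was listed. The unchanged H2A.Z region there lay from -1054 to -266 bp (ratio 1.28) and the unchanged H2A.Zac region from -1182 to -33 bp (ratio 0.724).

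A second set of gained regions in the H2AZ1 locus belongs to the position of its neighbor DNAJB14, a chaperone gene whose TSS lies 3657 bp past that of H2AZ1 on the same strand. An H2A.Zac region of 1749 bp was gained there with a ratio of 9.25, along with H2A.Z regions of 595 bp (ratio 6.89) and 257 bp (ratio 3.7). The smallest of these lay wholly inside an unchanged H2A.Z region of 981 bp, so the 2 classes were both called on the same bases. These regions are nearer to DNAJB14 than to H2AZ1, and without such regions the H2A.Z gained count of the 9 loci is 3 instead of 5.

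H2AZ2, the gene of the other isoform, showed the mirror arrangement for H2A.Z. It lies at chr7:44826791-44848087 on the minus strand, with 5 exons. Its gained H2A.Z region was upstream, from -1291 to -357 bp (935 bp, ratio 6.64), and the downstream region in intron 1, from +193 to +451 bp, was unchanged (ratio 0.897). In H2AZ1 the gained side was the downstream one. H2A.Zac was gained in 5 separate regions across the H2AZ2 promoter and first intron, more than in any of the other 8 loci. They ran from -1291 to -706 bp (ratio 6.67), from -540 to -271 bp (7.02), over the TSS from -72 to +221 bp (7.77), from +446 to +794 bp (8.28) and from +1357 to +2380 bp (5.64). The 4 nearest to the TSS covered 1208 of the 2001 bases around it, and no unchanged H2A.Zac base was listed in that window, which was the case for no other of the 9 genes. The only unchanged H2A.Zac region of the locus lay from -1394 to -1132 bp (ratio 1.2). Because bdgdiff assigns classes along the pileup, these 5 regions can be parts of fewer peaks.

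By the class of both marks in 200 bins of 100 bp around the TSS, the genes most like H2AZ1 among 19969 others were ERI1 (78.5% of bins identical), KIAA0040 (78%) and RSL24D1 (78%, tied with KIAA0040), where the median gene shared 63%. Those most like H2AZ2 were PPP2CA (87.5%), ENSG00000272772 (87%), which starts beside PPP2CA, and PSMD2 (85.5%), against a median of 76.5%. Bins with no region in either gene count as identical in this measure.

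**Figure D3:**
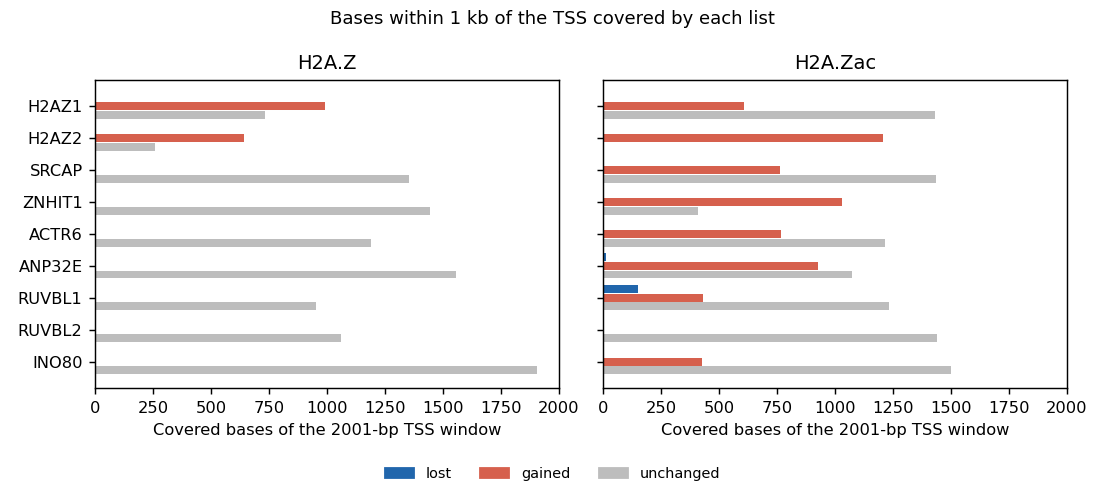
Bases of the 2001-bp window around the canonical TSS covered by lost (blue), gained (red) and unchanged (gray) regions, for H2A.Z (left) and H2A.Zac (right) in each of the 9 genes. Red bars for H2A.Z appear at H2AZ1 (991 bases) and H2AZ2 (644 bases), and H2AZ2 is the gene with 0 unchanged H2A.Zac bases. The classes were counted separately and can share bases.

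Among the SRCAP complex genes, ZNHIT1 had the clearest gain of acetylation and none had a changed H2A.Z region at its TSS. SRCAP encodes the ATPase of the complex, ZNHIT1 a small zinc-finger subunit and ACTR6 the actin-related protein ARP6, both of which contact the nucleosome. ZNHIT1 lies at chr7:101218165-101224190 on the plus strand, and a gained H2A.Zac region of 1031 bp spanned its TSS from -612 to +418 bp with a ratio of 6.92. The H2A.Z under it was unchanged, in a single region from -1406 to +444 bp (ratio 0.542) that covered 100% of the gained H2A.Zac region. PLOD3, a collagen-modifying enzyme gene read in the opposite direction, starts 584 bp upstream of ZNHIT1, and the gained region covers both starts. It can therefore not be assigned to ZNHIT1 alone.

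SRCAP, at chr16:30698209-30741409 on the plus strand, had its change at the edges of an unchanged center. The TSS itself was covered by an unchanged H2A.Zac region from -120 to +772 bp (ratio 0.357) and by an unchanged H2A.Z region of 2025 bp (ratio 0.524). Upstream of it lay 3 gained H2A.Zac regions, from -537 to -78 bp (ratio 4.31), from -1044 to -698 bp (5.07) and from -1723 to -1401 bp (4.07). All 3 shared bases with unchanged H2A.Zac regions, in 248, 177 and 323 bp. Further out, both marks were lost in a distal region, H2A.Zac from -5975 to -5149 bp (ratio 7.15) and H2A.Z from -5901 to -5202 bp (ratio 4.73), and the H2A.Z region lay wholly within the H2A.Zac one. This was the only place in the 9 loci where a lost H2A.Zac region was covered to at least 25% by a lost H2A.Z region.

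ACTR6, at chr12:100199122-100241865 on the plus strand, gained H2A.Zac in intron 1 from +146 to +912 bp with a ratio of 4.06, among the lowest of the gained regions. Of its 767 bp, 486 were also in unchanged H2A.Zac regions. The H2A.Z regions on both sides of the TSS, from -1531 to -172 bp and from +204 to +565 bp, were unchanged, with ratios of 0.643 and 0.757. As an alternative, changed regions that lay over 50% in the unchanged list of the same mark were left out. ACTR6 and SRCAP then no longer counted as gained at the TSS, which left 6 of 9 genes against 31.6% of all genes. That background also counts genes with no H2A.Zac region listed near the TSS.

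ANP32E, the gene of the chaperone that takes H2A.Z out of nucleosomes, was the only one of the 9 with lost and gained regions of both marks in its locus. The gene lies at chr1:150218417-150236156 on the minus strand. Its gained H2A.Zac region was the widest of the 16, with 2579 bp from +74 to +2652 bp in exon 1 and intron 1 (ratio 6.46). At its far end a gained H2A.Z region of 519 bp lay within it, from +1851 to +2369 bp (ratio 4.63), while the H2A.Z region next to the TSS, from +106 to +1627 bp, was unchanged (ratio 0.786). Upstream the direction was the opposite. H2A.Zac was lost from -1428 to -989 bp (ratio 6.62), of which 12 bases fell within 1 kb of the TSS, and H2A.Z was lost from -4163 to -3749 bp (ratio 5.71) and from -4738 to -4358 bp (ratio 4.84). The lost H2A.Z regions held no listed H2A.Zac of any class. The TSS base itself lay in an unchanged H2A.Zac region (ratio 1).

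The AAA+ ATPase genes differed from each other. RUVBL1, at chr3:128064778-128153914 on the minus strand, gained H2A.Zac over the TSS from -34 to +394 bp (429 bp, ratio 5.4) and lost it upstream, from -1461 to -849 bp (ratio 6.68), with an unchanged region from -848 to +17 bp between them that shared bases with the gained one. Its H2A.Z regions on both sides of the TSS were unchanged, with ratios of 0.895 and 0.539. The gene annotation reaches past the start of EEFSEC, a selenocysteine elongation factor gene on the other strand, 29669 bp upstream of the RUVBL1 TSS. At the EEFSEC start a second H2A.Zac region of 402 bp was gained with a ratio of 3.4, the lowest of the 16, wholly inside an unchanged one.

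RUVBL2, at chr19:48993562-49015970 on the plus strand, was the exception at the TSS. Its start lay in an unchanged H2A.Zac region from -409 to +601 bp (ratio 0.553) and an unchanged H2A.Z region from -359 to +321 bp (ratio 0.548), and the regions over or beside the start of GYS1, the muscle glycogen synthase gene 578 bp upstream in the opposite direction, were unchanged as well. The changes in its locus were losses past the end of the gene. An H2A.Zac region of 804 bp was lost there with a ratio of 12.6, the highest of all 70 regions, beside a lost H2A.Z region of 462 bp (ratio 5.2). Both are nearer to LHB, the luteinizing hormone beta subunit gene, or to ENSG00000268655 than to RUVBL2.

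INO80, at chr15:40978880-41116280 on the minus strand, showed a pattern with few regions. The H2A.Z region over its TSS, from -907 to +1005 bp, was unchanged (ratio 0.726), as was the H2A.Zac region from -498 to +1204 bp (ratio 1.21). At the upstream edge of these, H2A.Zac was gained from -892 to -467 bp (426 bp, ratio 5.41), and the whole of that stretch lay on the unchanged H2A.Z region. The rest of the gene body, 137401 bp in all, held no other listed region of either mark.

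Where H2A.Zac was gained, H2A.Z was mostly present and unchanged. Of the 16 gained H2A.Zac regions, 10 were covered to at least 25% by unchanged H2A.Z, 4 by gained H2A.Z, 0 by lost H2A.Z and 3 by none, and 1 region could count under several classes. Over the whole list these shares were 45.9% on unchanged, 18.7% on gained, 0.0322% on lost and 43.1% on none to that extent. The 3 below that cover were all in H2AZ2, over its TSS and in its first intron, with 9.86, 1.72 and 0% of their bases in unchanged H2A.Z. In the other direction, all 5 gained H2A.Z regions were covered to at least 25% by gained H2A.Zac (65.8% of the list). Of the 4 lost H2A.Z regions, 2 were covered by lost H2A.Zac (65.9% of the list), at SRCAP and, to 26% and beside unchanged H2A.Zac, at RUVBL2. The 2 at ANP32E were covered by no H2A.Zac (26.9% of the list to that extent). No changed region of either mark lay on an opposite change of the other. Such overlap was also very rare over the whole lists, with at most 0.0781% of a changed list covered to at least 25%.

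The placement beside the TSS also varied. The TSS base itself lay in an H2A.Zac region in all 9 genes (58.8% of all genes). It was gained in 4 (H2AZ1, H2AZ2, ZNHIT1 and RUVBL1, 17.6% of all genes) and unchanged in 6 (41.3% of all genes), with both classes at RUVBL1. Among all genes with an H2A.Zac region of any class over the TSS base, 29.9% had a gained one. The TSS base lay in an H2A.Z region in 4 genes (SRCAP, ZNHIT1, RUVBL2 and INO80), always unchanged, a share of 44.4% near the 41.5% of all genes. No gene had a gained H2A.Z region there (3.22% of all genes). In the other 5, H2AZ1, H2AZ2, ACTR6, ANP32E and RUVBL1, the H2A.Z regions stood on both sides with a gap over the TSS. H2A.Z nucleosomes on both sides of a nucleosome-poor start are a known feature of active promoters. Of the 12 gained H2A.Zac regions within 1 kb of a TSS, 5 lay upstream, 4 over the TSS and 3 downstream, so they kept to no single side, whereas both lost ones lay upstream.

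**Figure D4:**
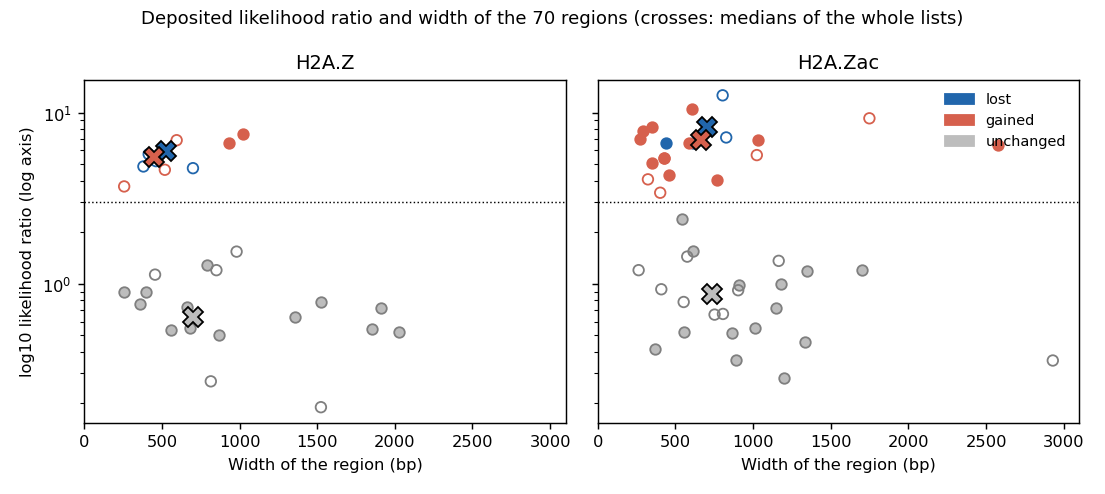
Deposited log10 likelihood ratio (log axis) against width in bp of the 70 regions, H2A.Z left and H2A.Zac right. Filled points lie within 1 kb of the canonical TSS and open points do not; blue is lost, red gained and gray unchanged, crosses are the medians of the whole lists, and the dotted line is the cutoff of 3. The gained H2A.Zac points lie between 3.4 and 10.5 and most are narrower than the list median of 664 bp.

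The changed regions were not extreme in their lists. The 16 gained H2A.Zac regions had a median ratio of 6.05 (3.4 to 10.5) against 6.87 over the list, whose highest value was 126, and a median width of 444 bp (270 to 2579 bp) against 664 bp. The 5 gained H2A.Z regions were at 6.64 (3.7 to 7.44) against 5.48, and 595 bp wide against 449 bp. The 4 lost regions of each mark had medians of 5.02 for H2A.Z and 6.92 for H2A.Zac, against 5.95 and 8.27. Gained regions in these loci were richer in GC than in the lists, with a median of 56.4% against 48.6% for H2A.Zac and 60% against 47.1% for H2A.Z. This was not particular to the gained regions. The unchanged regions of these loci had medians of 52.7% against 50.5% for H2A.Zac and 62.3% against 52.2% for H2A.Z. With a cutoff of 10, H2AZ1 was the only one of the 9 with a gained H2A.Zac region at its TSS (5.46% of all genes), and no gene kept a gained H2A.Z region. Of the 16 gained H2A.Zac regions, 11 shared bases with an unchanged one, and 55.7% of the gained list did, so the classes do not exclude each other.

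The neighborhoods of the genes leaned in different directions. In the fixed 5-Mb window that holds each TSS (H2AZ1, H2AZ2, ACTR6 and ANP32E lie near an edge of theirs), gained regions made up between 23.9% (RUVBL2) and 66.7% (ACTR6) of the changed H2A.Zac regions, where the whole list had 50.4%. For H2A.Z the range was from 4.95% (RUVBL2) to 76.9% (ACTR6), around 41.6% in the list. RUVBL2, the gene with no gain, thus lies in a stretch of chromosome 19 with a strong excess of losses, 211 lost against 11 gained H2A.Z regions (Wilson 95% confidence interval of the gained share, 2.79 to 8.65%) and 267 against 84 H2A.Zac regions (19.8 to 28.7%). The ACTR6 window held few changes, 13 for H2A.Z and 66 for H2A.Zac. H2AZ2 gained both marks although losses prevailed around it, with 35.2% of 105 changed H2A.Zac regions and 27.8% of 36 H2A.Z regions gained (intervals 26.8 to 44.7% and 15.8 to 44%). H2AZ1 lay in a window with 60% of 65 changed H2A.Zac regions gained (47.9 to 71%). These intervals cover counting error only, and the part of the neighborhood in the values of a gene was not tested.

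**Figure D5:**
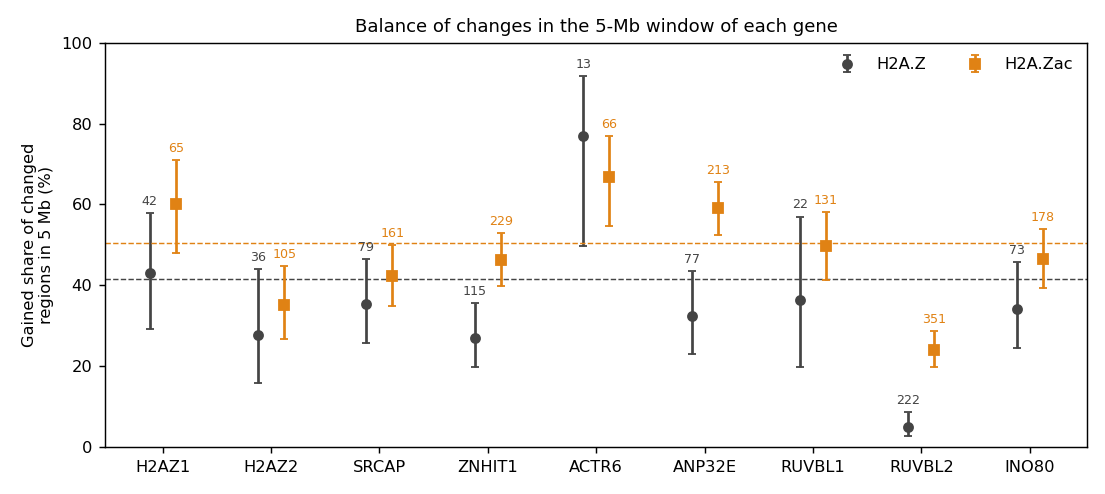
Gained share of the changed regions, in percent, in the fixed 5-Mb window that holds the TSS of each gene, for H2A.Z (gray circles) and H2A.Zac (orange squares). Bars are Wilson 95% intervals, numbers are the changed regions in the window, and dashed lines are the shares over the whole lists, 41.6% and 50.4%. The RUVBL2 window lies lowest for both marks and the ACTR6 window highest.

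Other genes of the same complexes and functions, 22 in all, also had gained H2A.Zac more often than changed H2A.Z at their TSSs. A gained H2A.Zac region lay within 1 kb of the TSS in 14 of 22 (36.8% of all genes, as above) and a lost one in 3 (13.6%, against 16.7% of all genes). Of the 20 related genes with an H2A.Zac region of any class there, 70% had a gained one, against 57.3% of all such genes. H2A.Z was gained in 3 (13.6% against 13.9%) and lost in 2 (9.09% against 6.55%). The lost H2A.Zac count and both H2A.Z counts thus lay near the background. Among the other SRCAP subunits, 4 of 5 had a gained H2A.Zac region. These were VPS72, whose protein binds the H2A.Z dimer (ratio 5.89), DMAP1 (5.67), ACTL6A (4.89) and the actin gene ACTB (13.2), which also had a lost one (6.24). The exception was YEATS4, a reader of acetylated histones, at which both H2A.Zac (4.63) and H2A.Z (4.08) were lost. ACTL6A was the only one of the 5 with a gained H2A.Z region too (5.59).

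Among the other INO80 subunits, 6 of 11 had a gained H2A.Zac region at the TSS (54.5%), near the 57.3% of all genes with any listed H2A.Zac region there, as all 11 had. The ratios ranged from 5.2 at INO80D to 13.3 at UCHL5, the gene of a deubiquitinase, and the others were INO80B, NFRKB, MCRS1 and the transcription factor gene YY1 (9.17). UCHL5 was the only one of these 11 to gain H2A.Z too (6.39). ACTR5, which encodes the actin-related protein ARP5, lost both marks (8.96 for H2A.Zac and 6.4 for H2A.Z), and INO80C, INO80E, ACTR8 and TFPT had unchanged regions only. Both genes of H2A dimer chaperones, NAP1L1 (5.13) and NAP1L4 (9.09), had gained H2A.Zac and no changed H2A.Z. Of the 4 genes of other H2A variants, H2AX (9.29) and MACROH2A1 (9.95) had gained H2A.Zac, MACROH2A1 with gained H2A.Z (6.93), and H2AJ had no listed region near its TSS. Whether the transcripts or proteins of any of these genes differed between the lines was not analysed here.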

How the data were processed

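Reads had been aligned to hg38 with Bowtie2 2.4.5 and the merged replicates of the lines compared with MACS2 2.2.7.1 bdgdiff, given the effective depths from MACS2; the submitters' processing notes also name bedtools 2.30.0 and deepTools 3.5.1. The authors kept regions with at least 25% of their length in peaks reproducible at an IDR of 0.05. The deposited score of a region is its log10 likelihood ratio. These steps are in the 6 lists and were not repeated. With no value per replicate and no depth, no precision could be given for a region and no test was made.

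Genes and canonical TSSs came from GENCODE release 44, a newer release than that of the paper. A region was put in a locus when it shared at least 1 bp with it. The 9 genes were all named, with related genes that had a changed region at the TSS (the others complete a count), neighbors whose TSS lay in a locus, and the 3 genes most alike in binned classes. The genes and lists were chosen with earlier results of these data known. Overlap counts differed from those of bedtools 2.31.1 in 0 of 500 simulated loci. Python 3.11.15, numpy 2.4.6, scipy 1.17.1 and matplotlib 3.10.9 were used. Alternatives were other flanks, overlaps, TSS windows, cutoffs, widths, merging and window sizes, and, chosen after seeing the data, loci of canonical transcripts, regions nearer to another gene left out, and changed regions over 50% unchanged left out. Input libraries, signal tracks and expression were not analysed here.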

Additional observations from a re-analysis of the deposited data

How the results depend on the processing

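Of the counts and covered shares of the 9 genes recomputed under other settings, 70 stayed close to the reported value (counts within 1.5 times, shares within their binomial interval) and 24 did not. Without the 5-kb flank, the changed share of H2A.Z bases was 13.1% instead of 22.8%, which still counted as close. The counts that moved at this setting were 0 lost and 2 gained H2A.Z regions and 0 genes with a lost H2A.Z region in the locus. Lost H2A.Zac regions and the genes with one also moved, both to 1. With a cutoff of 5, H2A.Z regions were 2 lost and 3 gained. With a cutoff of 10, there were 0 lost and 0 gained H2A.Z regions, and 0 genes with a gained one at the TSS or in the locus or a lost one in the locus; H2A.Zac kept 1 lost and 1 gained region, 1 gene with a lost and 1 with a gained region in the locus, 0 genes lost at the TSS and 1 gained there. Regions of at least 500 bp left 1 lost H2A.Z and 7 gained H2A.Zac regions. Merging within 1 kb gave 10 gained and 15 unchanged H2A.Zac regions. A TSS window of 500 bp left 0 genes with lost H2A.Zac, and without regions nearer to another gene 3 gained H2A.Z regions remained. The gained H2A.Zac count at the TSS was 8 of 9 with windows of 500 bp and 2 kb and at any annotated TSS, and 7 with a cutoff of 5 (28% of all genes). With 2-Mb windows, the gained share of H2A.Z moved most at H2AZ1, from 42.9 to 73.9%, and at RUVBL1, from 36.4 to 10%. No paired analysis was possible because the lists merge the replicates, and for the same reason no replicate could be left out. The unknown depth limits every count: a region missing from a list may be one that the libraries could not resolve.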
